A study of Homo sapiens with 6 samples.

Results

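The ERBB receptors and their ligands were read in RNA-seq of cells labelled LoVo, an established human colorectal cancer line, after depletion of the lncRNA SNHG15. The family was taken by symbol and holds 9 genes of the 63677 in the count table. 4 are receptors (EGFR, ERBB2, ERBB3 and ERBB4) and 5 are ligands (AREG, EREG, TGFA, BTC and HBEGF). All libraries came from cells transfected with siRNA at 25 nM and collected after 48 h. 3 libraries are from cells given a negative control siRNA, called scramble, and 3 from cells given both SNHG15 siRNAs together. The siRNAs lower the transcript and delete nothing, and a single line was used. Both siRNAs were mixed, so an effect of either alone cannot be told apart in these libraries. The study's methods call the replicates biological.

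EGFR, ERBB2, ERBB3 and ERBB4 are receptor tyrosine kinases that act in pairs. ERBB2 binds no known ligand and serves as a partner, and ERBB3 has a weak kinase but many docking sites for PI3K, so it signals through its partner. AREG and TGFA bind EGFR, while EREG, BTC and HBEGF bind EGFR and ERBB4. The neuregulins bind ERBB4, and of them NRG1 and NRG2 also bind ERBB3. The ligands are made as membrane precursors and are cut free by ADAM proteases such as ADAM17. Antibodies against EGFR are used in colorectal cancer, where the transcripts of AREG and EREG have been studied as markers of response to them.

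The libraries held between 3446922 counts (scramble replicate 3) and 10256710 counts (scramble replicate 2), and 3 counts corresponded to 0.298 to 0.907 CPM in a library, where CPM is the count scaled by library size and edgeR's TMM factor. SNHG15 itself was at 261 to 290 CPM with scramble and 77.2 to 87.2 CPM with the SNHG15 siRNAs. On the first principal component, with 46.0% of the variance, the scramble libraries lay between -24.0 and -17.0. SNHG15 siRNA replicate 1 lay farthest from them, at 39.1, against 14.3 and 11.5 for replicates 2 and 3. The cell line label was checked against 15 markers of colorectal epithelium. 10 of them had at most 3 counts in every library, among them EPCAM (0 or 1 count), CDH17, KRT19, KRT20, VIL1 and CEACAM5. An 11th, LGALS4, had at most 4. CDX2, KRT8, KRT18 and CDH1 were read well, at 27.9, 46.4, 23.9 and 7.52 CPM with scramble. Most defining markers of colorectal epithelium were thus absent or near 0 in both conditions, and the part of this in the results was not tested. The summed level of the 15 markers was 103 to 110 CPM with scramble and 107 to 117 CPM with the SNHG15 siRNAs. Of 14 markers of blood, stromal, endothelial and other cells in the table, 12 had at most 3 counts in every library, and their sum was 0.586 to 0.895 CPM with scramble and 1.15 to 1.53 CPM with the SNHG15 siRNAs.

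Depletion of SNHG15 was accompanied by a higher level of ERBB3. In edgeR's quasi-likelihood test over 12507 genes, ERBB3 was the only member past an adjusted p of 0.05, with a 2.28-fold rise, and 0 members fell. DESeq2 also called ERBB3 higher (adjusted p = 0.00753) and no other member, where it called 6.05% of all genes in either direction and 3.03% of all genes higher. EGFR, ERBB2, TGFA and HBEGF were tested and not called. BTC had too few counts to be tested, and ERBB4, AREG and EREG had 0 counts in every library. The 1 call among 5 tested members stands beside 5.36% of all genes tested, of which 3.13% were called higher and 2.23% lower. In 4 of the 5 the conditions did not overlap, 2 with all SNHG15 siRNA libraries higher and 2 with all lower, beside 28.8% of all genes tested. The median log2 fold change of the 5 was -0.18, beside 0.00 for all genes. In bulk RNA, fewer cells with a transcript and less transcript per cell cannot be told apart.

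**Figure D1:**
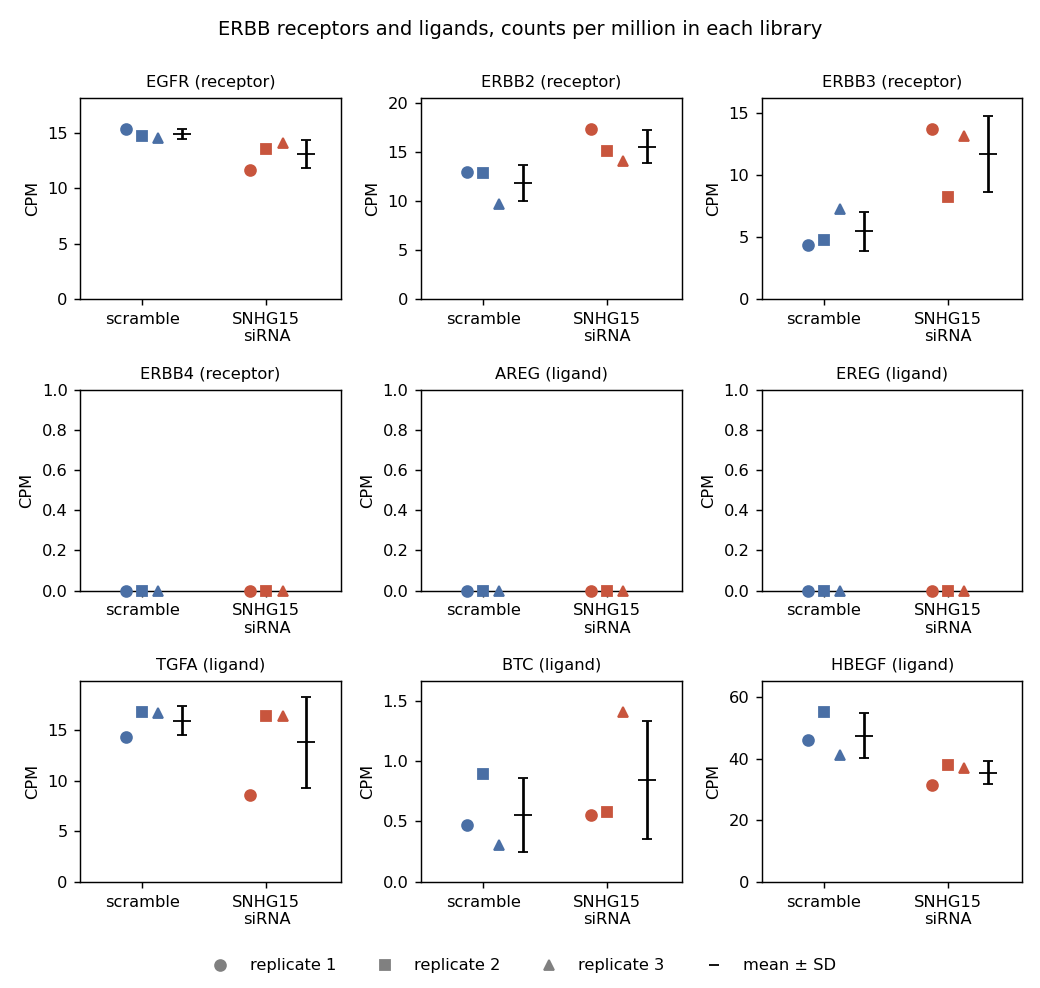
CPM, counts scaled for library size (vertical axis, a scale of its own in each panel), of the 9 family members in the 3 scramble and 3 SNHG15 siRNA libraries; symbols mark the replicate number and black bars the mean ± SD of 3 libraries. All 3 ERBB3 values with the SNHG15 siRNAs lie above the scramble values, the ERBB4, AREG and EREG points lie at 0, and TGFA is low in SNHG15 siRNA replicate 1 only.

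The 0 counts of AREG need its sequence beside them. On GRCh37, AREG (ENSG00000109321) lies on the plus strand at chr4:75310853-75320722, and a near-identical copy, annotated there as AREGB, lies at chr4:75480629-75490486 on the same strand. The 5 exons that hold coding sequence have 756 coding bases, of which 755 are the same in the copy. The only exon with a difference is exon 1, whose coding bases are shown to let the extent of the copy be seen. The capital marks position 30, counted from the first coding base, where the copy has the substitution G30A.
AREG exon 1, chr4:75311063-75311123, plus strand: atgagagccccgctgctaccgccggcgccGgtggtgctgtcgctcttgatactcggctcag
AREGB exon 1, chr4:75480839-75480899, plus strand: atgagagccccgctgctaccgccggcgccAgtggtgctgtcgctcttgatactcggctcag
All 1642 exonic bases of AREG lay in stretches of at least 75 bases with a copy of 98% identity or more elsewhere in the genome, and 83.5% lay in an exact copy of that length. AREGB (ENSG00000205595) also had 0 counts in every library. A 75 bp read from most of AREG fits both places equally well, and how reads with several placements were counted is not given in the sources used here. Absence of AREG transcript and removal of its reads therefore cannot be told apart. EREG, whose exons had no such copy, also had 0 counts in every library.

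ERBB3 was among the genes that the study picked from these libraries for qRT-PCR, so that assay and the counts below are not independent choices. By the paper's account, ERBB3 was deregulated in that assay with either SNHG15 siRNA alone or with both together. Its primer pair is shown because it reads a small part of the transcript, while the counts come from all exons. Both primers matched the ERBB3 transcript of 28 exons once, and they bound a product of 96 bases across the junction of exon 9 and exon 10.
ERBB3 forward primer, exon 9, chr12:56482576-56482596, plus strand: tcgagcaacattgatggattt
ERBB3 reverse primer, exon 10, chr12:56486531-56486549, minus strand: gatcttgtgccaggggtct
Stretches of at least 75 bases with 98% identity or more to another place covered 1.58% of the exonic bases of ERBB3 and 0.746% of those of ERBB2. They covered 0% of those of EGFR, ERBB4, EREG, TGFA, BTC and HBEGF.

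Among the receptors, ERBB3 (ENSG00000065361, chr12:56470583-56497289, plus strand) had the lowest counts of the 3 that were read in each scramble library. In SNHG15 siRNA replicate 1 EGFR was lower, with 84 counts. The level of ERBB3 was 4.34, 4.77 and 7.26 CPM in scramble replicates 1 to 3, from 37, 48 and 24 counts. With the SNHG15 siRNAs it was 13.7, 8.20 and 13.2 CPM, from 99, 57 and 112 counts. The lowest SNHG15 siRNA library, replicate 2, was above the highest scramble library, replicate 3, which was also the library with the fewest counts. The means were 5.46 ± 1.58 and 11.7 ± 3.04 CPM (SD, n = 3). The log2 fold change was 1.19 (standard error 0.26, 95% interval 0.63 to 1.74), with an adjusted p of 0.0197 in edgeR's quasi-likelihood test, rank 302 of all genes by p. The call was lost without scramble replicate 1 (log2 fold change 1.05, edgeR adjusted p = 0.105) and without scramble replicate 2 (1.12, edgeR adjusted p = 0.112), and it held without each of the other 4 libraries. Without SNHG15 siRNA replicate 1, the library farthest out, it was 1.07 with an edgeR adjusted p of 0.0271.

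**Figure D2:**
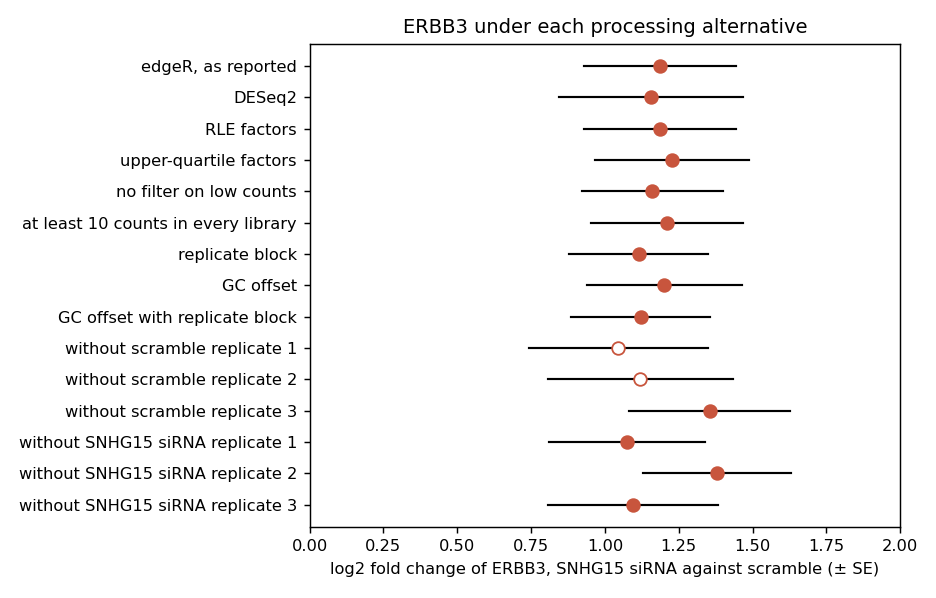
Log2 fold change of ERBB3 (horizontal axis, SNHG15 siRNA against scramble) as reported and under each processing alternative (vertical axis); points are estimates, bars ± 1 standard error, and filled points an adjusted p under 0.05. The estimates run from 1.05 to 1.38, and the open points are the fits without scramble replicate 1 and without scramble replicate 2.

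ERBB2 (ENSG00000141736, chr17:37844167-37886679, plus strand), the partner of ERBB3 without a ligand, was at 12.9, 12.8 and 9.68 CPM with scramble and at 17.3, 15.1 and 14.1 CPM with the SNHG15 siRNAs. The conditions did not overlap, and the log2 fold change was 0.36 (standard error 0.17, 95% interval -0.02 to 0.74). This was not past the threshold in edgeR's quasi-likelihood test (adjusted p = 0.242). ERBB2 shares 571 exonic bases with MIEN1 on the opposite strand, which had 1100, 1160 and 446 counts with scramble and 1079, 787 and 1163 with the SNHG15 siRNAs, and 144 bases with PGAP3, also on the opposite strand. PGAP3 was at 5.51, 2.78 and 4.23 CPM with scramble and at 8.04, 5.90 and 6.93 CPM with the SNHG15 siRNAs, higher in every library as ERBB2 was (log2 fold change 0.75, edgeR adjusted p = 0.126). ERBB2 itself had 32 to 129 counts. The library kit marks strand, but whether the counting used it is not given in the sources used here, so reads of these genes cannot be told apart in the shared bases.

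EGFR (ENSG00000146648, chr7:55086710-55279321, plus strand) was at 15.4, 14.7 and 14.5 CPM with scramble and at 11.6, 13.5 and 14.1 CPM with the SNHG15 siRNAs. All 3 SNHG15 siRNA libraries were below the scramble libraries, though replicate 3 by little. The log2 fold change was -0.18 (standard error 0.16, 95% interval -0.53 to 0.16), not past the threshold (edgeR adjusted p = 0.531). Its antisense transcript EGFR-AS1, with 186 shared exonic bases, had 0 counts in every library. ERBB4 (ENSG00000178568, chr2:212240442-213403565, minus strand), a neuregulin receptor, had 0 counts in each of the 6 libraries. At this depth a count of 0 allows a level of up to 0.298 CPM in the deepest library and up to 0.907 CPM in the shallowest, for counting error only.

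Among the ligands, HBEGF (ENSG00000113070, chr5:139712428-139726188, minus strand) had the most counts. This membrane-anchored growth factor, also the receptor for diphtheria toxin, was at 46.2, 55.3 and 41.1 CPM with scramble and at 31.3, 38.1 and 37 CPM with the SNHG15 siRNAs. All 3 SNHG15 siRNA libraries were below all scramble libraries. The log2 fold change was -0.43 (standard error 0.15, 95% interval -0.76 to -0.10), with an adjusted p of 0.115 in edgeR's quasi-likelihood test (0.0138 before adjustment), so the gene was not called. Of all genes tested, 22.5% had an unadjusted p under 0.05 in the same fit.

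TGFA (ENSG00000163235, chr2:70674416-70781325, minus strand), an EGFR ligand, was at 14.3, 16.8 and 16.6 CPM with scramble and at 8.60, 16.4 and 16.3 CPM with the SNHG15 siRNAs. SNHG15 siRNA replicate 1 was low, while replicates 2 and 3 lay among the scramble libraries. The log2 fold change was -0.20 (standard error 0.22, 95% interval -0.68 to 0.29, edgeR adjusted p = 0.644). Without SNHG15 siRNA replicate 1 it was 0.046, so its sign rested on that library.

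BTC (ENSG00000174808, chr4:75669969-75719733, minus strand), a ligand of EGFR and ERBB4, had 4, 9 and 1 counts with scramble and 4, 4 and 12 counts with the SNHG15 siRNAs. The conditions overlapped, and the gene did not pass the filter on low counts. Fitted without that filter, its log2 fold change was 0.44 (standard error 0.58, edgeR adjusted p = 0.691). EREG (ENSG00000124882, chr4:75230862-75254466, plus strand), a ligand of EGFR and ERBB4, was at 0 in all 6 libraries, with the same limits of counting as ERBB4. Of the 6 EGF family ligands outside the list, EGF, EPGN, NRG1, NRG2 and NRG3 also had 0 counts in every library. NRG4, a neuregulin that binds ERBB4, had 4, 10 and 1 counts with scramble and 5, 4 and 8 with the SNHG15 siRNAs. Of the neuregulins known to bind ERBB3, NRG1 and NRG2, no read was thus counted in any library.

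**Figure D3:**
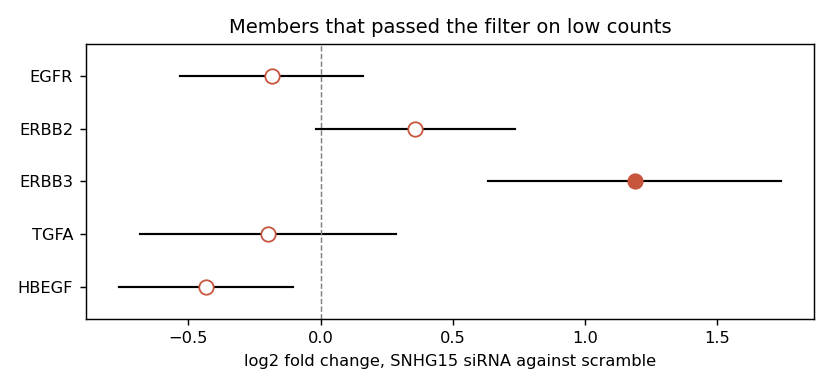
Log2 fold change (horizontal axis, SNHG15 siRNA against scramble) of the 5 family members that passed the filter on low counts; points are edgeR estimates, bars 95% intervals, and the filled point an adjusted p under 0.05. The interval of ERBB3, from 0.63 to 1.74, lies above 0, and those of EGFR, ERBB2 and TGFA cross 0. That of HBEGF, from -0.76 to -0.10, lies below 0, though the gene was not called after adjustment.

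To compare members with each other, CPM was divided by the length of each gene's annotated exons in kb. On this per-length scale HBEGF led with scramble, at 15.9 ± 2.40 CPM per kb (SD, n = 3), followed by TGFA at 3.24 ± 0.285. ERBB2 came next at 1.14 ± 0.178 and EGFR at 0.932 ± 0.0273, whose libraries overlapped. ERBB3 followed at 0.466 ± 0.135, with every library below the lowest for EGFR, and BTC at 0.209 ± 0.115. With the SNHG15 siRNAs, HBEGF was at 11.9 ± 1.22 and TGFA at 2.80 ± 0.912 CPM per kb. ERBB2 was at 1.50 ± 0.160, above ERBB3 at 0.998 ± 0.260 in every library. ERBB3 and EGFR, at 0.821 ± 0.0804, overlapped there, so on this scale these neighbors in the order did not differ beyond their spread. Their order depended on the length used. Per kb of canonical transcript, ERBB3 had a mean of 30.3% of the summed receptor level with the SNHG15 siRNAs and EGFR 19.6%. Without division by length, these means were 28.7% and 32.7%. BTC was at 0.319 ± 0.184 CPM per kb and remained lowest of the members with counts. All ligands together were at 17.3 to 22.3 CPM per kb with scramble and at 12.4 to 16.3 with the SNHG15 siRNAs. All receptors together were at 2.47 to 2.58 CPM per kb with scramble and at 3.01 to 3.58 with the SNHG15 siRNAs. Neither summed level overlapped between the conditions.

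The balance within the family was then read as shares of these summed levels. EGFR took 37.3%, 35.9% and 36.9% of the receptor level in scramble replicates 1 to 3 and 20.4%, 28.2% and 26.2% with the SNHG15 siRNAs. The groups did not overlap, and the means, 24.9% with the SNHG15 siRNAs and 36.7% with scramble, differed by -11.8 percentage points (two-sided exact permutation test, p = 0.1, the smallest that 3 against 3 allow). A share depends on the sum as well as on the gene. The EGFR level itself had means of 0.932 CPM per kb with scramble and 0.821 with the SNHG15 siRNAs. The means of the summed receptor level were 2.54 and 3.32 CPM per kb. ERBB3 took 14.3%, 15.8% and 25.1% with scramble and 32.7%, 23.2% and 33.3% with the SNHG15 siRNAs. The groups overlapped, since scramble replicate 3 was above SNHG15 siRNA replicate 2, and the difference of 11.3 points had an exact permutation p of 0.2. On this scale ERBB2 held the largest share in each library, 38.0% to 48.4% with scramble and 40.5% to 48.6% with the SNHG15 siRNAs. Its difference of 0.435 points (exact permutation p = 0.8) was far within the spread, and it changed sign without scramble replicate 3, SNHG15 siRNA replicate 1 or SNHG15 siRNA replicate 2. Without division by length, EGFR instead had the larger mean share with scramble, 46.3% against 36.7% for ERBB2. With the SNHG15 siRNAs these shares were 32.7% and 38.6%.

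Among the ligands, HBEGF held 79.7% to 83.4% of the summed level with scramble and 76.3% to 84.3% with the SNHG15 siRNAs, so that it led in every library among the ligands with counts. AREG enters this sum as 0, so these shares and the ratio below cover only ligands whose reads were counted. TGFA held 15.4% to 19.6% and 14.1% to 20.5%, and BTC 0.661% to 1.52% and 1.33% to 3.27%. All 3 overlapped between the conditions (exact permutation p = 0.4, 0.8 and 0.2). The log2 ratio of the summed ligands to the summed receptors was 2.84, 3.11 and 2.81 with scramble and 1.80, 2.44 and 2.27 with the SNHG15 siRNAs. Every SNHG15 siRNA library was below every scramble library, with means of 2.17 ± 0.332 and 2.92 ± 0.167 (SD, n = 3), a difference of -0.75 (exact permutation p = 0.1). The level of the ratio depended on the length used, with scramble means of 2.25 per kb of canonical transcript and 0.99 without division by length, where the differences were -0.80 and -0.68. Adjusted over these 7 comparisons (Benjamini-Hochberg), the smallest exact permutation p became 0.35, so that 0 of them passed, and with 3 against 3 no comparison could have gone below 0.1.

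**Figure D4:**
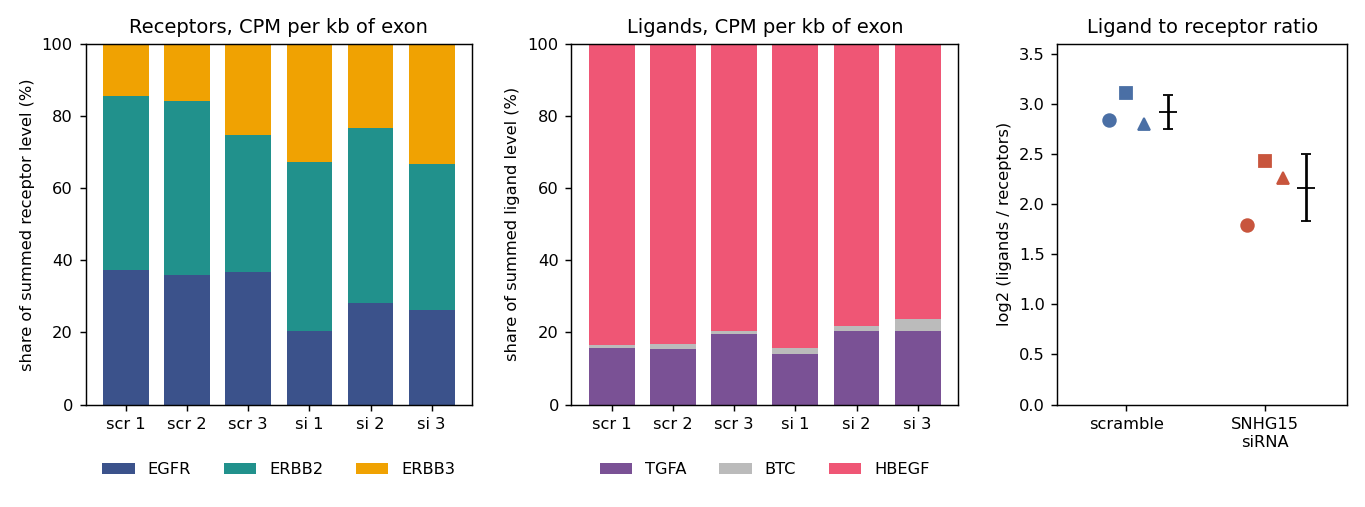
Shares of each receptor (left, %) and ligand (middle, %) in the summed level per kb of exon in each library (scr, scramble; si, SNHG15 siRNA; numbers are replicates), and the log2 ratio of ligands to receptors (right; symbols are replicates, bars mean ± SD of 3 libraries). The EGFR share is at most 28.2% in the SNHG15 siRNA libraries and at least 35.9% in the scramble libraries, HBEGF makes up most of the ligand level throughout, and the 3 ratios with the SNHG15 siRNAs lie below those with scramble.

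The pathway around the receptors was read from lists of genes, whose counts stand beside 5.36% of all genes called by edgeR, 3.13% higher and 2.23% lower, and a median of 0.00. Of 16 genes for the processing and release of EGF family ligands, 12 were tested and 0 were called by edgeR, with 1 at an unadjusted p under 0.05, beside 22.5% of all genes, and a median log2 fold change of -0.08. DESeq2 called 0 of them as well. The gene with the unadjusted p under 0.05 was ADAM17, the main protease that releases TGFA and AREG, named after its values were seen. It was at 2.46, 3.08 and 3.02 CPM with scramble and at 1.25, 2.01 and 0.822 with the SNHG15 siRNAs (log2 fold change -1.08, edgeR adjusted p = 0.0994), from 7 to 31 counts.

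Of 39 adaptors and signal transducers, 35 were tested, 2 rose and 3 fell, beside 3.13% and 2.23% of all genes, with a median log2 fold change of -0.07. NRAS, a small GTPase that passes receptor signals to the RAF kinases, fell from 63.9 ± 2.20 to 23.5 ± 1.96 CPM (SD, n = 3), a log2 fold change of -1.44 (edgeR adjusted p = 0.000376). It too was picked by the study for qRT-PCR, where the paper reports it as deregulated with either siRNA alone or with both. HRAS, its relative, named here after its values were seen, had a log2 fold change of -0.11 (edgeR adjusted p = 0.695). MAP2K1, the kinase that activates ERK, fell from 178 ± 13.2 to 104 ± 18.0 CPM (log2 fold change -0.78, edgeR adjusted p = 0.00911). PTPN11, the phosphatase SHP2 that transmits signals to RAS, rose from 52.6 ± 6.70 to 83.0 ± 4.34 CPM (0.65, edgeR adjusted p = 0.0163). The adaptor SHC2 rose from 5.88 ± 0.293 to 10.9 ± 1.01 CPM (0.88, edgeR adjusted p = 0.0200). The 5 calls became 3 without scramble replicate 1, scramble replicate 3 or SNHG15 siRNA replicate 2, and 1, NRAS, without scramble replicate 2. The call of SHC2 was lost in 4 of the 6 fits with a library left out and with the GC offset and replicate block (edgeR adjusted p = 0.0739).

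Of 33 receptor inhibitors, ubiquitin ligases and trafficking genes, 31 were tested, and the median log2 fold change was -0.06. Of these, 1 rose and 1 fell, a count near the share of all genes, 5.36% in either direction. USP8, a deubiquitinase that acts on EGFR in endosomes, rose from 14.0 ± 1.49 to 22.3 ± 2.99 CPM (log2 fold change 0.66, edgeR adjusted p = 0.0371). SPRY4, a feedback inhibitor of receptor signaling to RAS and ERK, fell from 664 ± 121 to 428 ± 36.4 CPM (-0.64, edgeR adjusted p = 0.0248). The other 29 were not called. Without scramble replicate 1, scramble replicate 2 or SNHG15 siRNA replicate 2, 0 of these 2 calls remained, and that of USP8 was also lost without scramble replicate 3 or SNHG15 siRNA replicate 1.

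Of 20 transcripts that depend on ERK activity, 19 were tested, 0 rose and 4 fell, beside 2.23% of all genes called lower. Their median log2 fold change was -0.41, beside 0.00 for all genes, and in 10 of the 19 every SNHG15 siRNA library was below every scramble library, beside 14.1% of all genes. Like the other lists, this one was chosen with earlier results of these data known, so these values only describe it. PHLDA1 fell from 2299 ± 296 to 1203 ± 267 CPM (log2 fold change -0.93, edgeR adjusted p = 0.00761). EGR1, an immediate early transcription factor, fell from 346 ± 33.2 to 193 ± 36.6 CPM (-0.84, edgeR adjusted p = 0.00804). DUSP6, the phosphatase that switches off ERK, fell from 99.7 ± 15.5 to 67.5 ± 7.95 CPM (-0.57, edgeR adjusted p = 0.0399), and SPRY4 is the fourth. The call of DUSP6 was lost with the replicate block (edgeR adjusted p = 0.0549), with 10 counts required in every library (edgeR adjusted p = 0.0527) and in 4 of 6 fits with a library left out. SNHG15 siRNA replicate 1 had the lowest level of each of these 4. The count of 4 became 2 without scramble replicate 1 and 0 without scramble replicate 2, and it was 5 without SNHG15 siRNA replicate 1.

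ERBB3 is also known as a gene that FOXO factors raise when AKT is inhibited. Of 18 genes so listed, 17 were in the table and 15 were tested, ERBB3 included, with a median log2 fold change of 0.01. At an unadjusted edgeR p under 0.05, 4 of the 15 were higher, beside 12% of all genes, and 0 were lower. In 5 of the 15 every SNHG15 siRNA library was above every scramble library, beside 14.7% of all genes, and in 0 every one was below. ERBB3 itself is in both counts, and the list was chosen with earlier results known. The 2 called higher, beside 3.13% of all genes, were ERBB3 itself and TRIB2, a pseudokinase. TRIB2 rose from 2.06 ± 0.310 to 4.62 ± 0.281 CPM (log2 fold change 1.21, edgeR adjusted p = 0.0209), from 8 to 41 counts. Both calls were lost without scramble replicate 1 and without scramble replicate 2, and that of TRIB2 also without SNHG15 siRNA replicate 2 and with DESeq2. INSR and IGF1R, receptors on the same list named after their values were seen, had log2 fold changes of -0.10 and 0.29 (edgeR adjusted p = 0.793 and 0.339).

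Of 44 other receptor tyrosine kinases, 14 had 0 counts in every library and 18 were tested. Their median log2 fold change was -0.08, 0 were called by edgeR, 2 had an unadjusted p under 0.05, beside 22.5% of all genes, and DESeq2 called 2, both lower, beside 3.02% of all genes. The 2 with an unadjusted p under 0.05, AXL and EPHA2, are named after their values were seen. AXL was at 573 to 671 CPM with scramble and 467 to 508 with the SNHG15 siRNAs (log2 fold change -0.36, edgeR adjusted p = 0.0902). EPHA2 was at 187 to 282 and at 116 to 176 CPM (-0.58, edgeR adjusted p = 0.0793). Among the receptor tyrosine kinases listed, ERBB3 included, ERBB3 alone passed the threshold of edgeR.

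**Figure D5:**
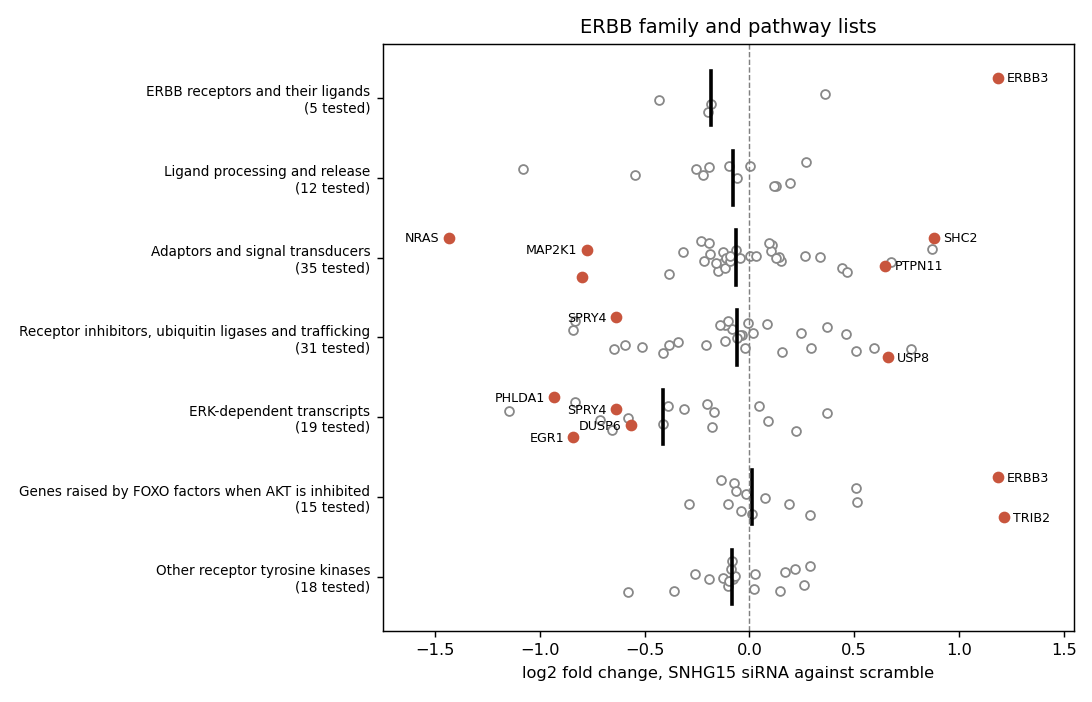
Log2 fold change (horizontal axis, SNHG15 siRNA against scramble) of each tested gene of the family and of 6 pathway lists (rows; vertical jitter only separates points); filled points have an adjusted p under 0.05, those described in the text with their names, and black bars are list medians. The ERK-dependent transcripts have the lowest median, -0.41, and ERBB3 and TRIB2 are the points farthest to the right.

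The genes whose levels most resembled those of ERBB3 were sought by Pearson's r of log2 CPM over the 6 libraries. They were sought among the other tested genes of at least 10 CPM on average, a level that ERBB3 itself did not reach. GDE1 (r = 0.987), SPRYD4 (0.984), ECD (0.983), FAM217B (0.983) and ANG (0.982) led. This is a description over 6 libraries, 3 of each condition and of unequal depth, and these genes were picked for their likeness. Their own changes were smaller than that of ERBB3, from a log2 fold change of 0.22 for ECD to 0.71 for ANG, and 0 of the 5 were called by edgeR (adjusted p from 0.0597 to 0.413).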

How the data were processed

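RNA of 3 scramble and 3 SNHG15 siRNA libraries was sequenced as 75 bp pairs from a stranded mRNA kit. The authors deposited raw counts per Ensembl gene. The submitters' processing notes name STAR, featureCounts and hg19, while the paper names bowtie2. The annotation, strand setting and use of multiply placed reads are not given in the sources used here. The labels name TRIzol for the RNA and the paper another kit. Groups came from the sample labels.

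Counts were tested with edgeR 4.0.16 (filterByExpr, minimum count 10, TMM, quasi-likelihood test, Benjamini-Hochberg over 12507 genes), with DESeq2 1.42.0, other factors, filters, GC offset, replicate block and each library left out as alternatives. Replicates of a condition differed beyond sampling noise (chi-square over its degrees of freedom 4.05 or more). Exon lengths and positions came from GENCODE 44 on GRCh37, and copies from BLAST 2.17.0. Shares used exact permutation tests over libraries. Tested on simulated data (12507 genes, 200 changed by 1 on the log2 scale), edgeR recovered 149 with 13 false calls. With the replicate block it recovered 155 there, with 29 false calls. The members and lists were chosen with earlier results of these data known. Named genes are all members, the other EGF family ligands, up to 5 called genes of each list and the 5 genes most like ERBB3, and others are marked as named after their values were seen. Protein sequences were not used here, and 1 called gene of the adaptor list is counted but not reported here.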

Additional observations from a re-analysis of the deposited data

How the results depend on the processing

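ERBB3 was called in each of 8 alternatives that kept all libraries (log2 fold change 1.12 to 1.23, adjusted p 0.000101 to 0.0332). The lowest of these came from edgeR with no filter on low counts only, and the next, 0.00753, from DESeq2. Leaving out each library in turn gave 1.05 to 1.38, and the count of members called was 0 to 1, with 0 without scramble replicate 1 or 2. EGFR, ERBB2, TGFA and HBEGF were called in none of these 14 fits. EGFR ran from -0.24 to -0.11 when each library was left out, ERBB2 from 0.26 to 0.43, HBEGF from -0.52 to -0.30, and TGFA from -0.34 to 0.046, its sign turning without SNHG15 siRNA replicate 1. The difference in the ERBB2 share ran from -3.01 to 2.85 points when each library was left out and was -0.920 per kb of canonical transcript, a scaling chosen after seeing the data. The other shares and the ratio of ligands to receptors kept their sign, the ratio between -0.889 and -0.569. Libraries of the same replicate number had correlations of deviations from -0.07 to 0.16, and those of different numbers from -0.17 to 0.14. Whether the numbers pair the libraries cannot be told from so few correlations. With the replicate block ERBB3 was at 1.12 (adjusted p 0.0332), calls over all genes went from 671 to 543, and no other member was called.

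Over the lists, alternatives chosen after seeing the data, the ERK-dependent count of 4 became 8 with DESeq2, 10 with no filter on low counts, 8 with the GC offset, 8 with the GC offset and replicate block, 5 with the replicate block alone and 3 with a minimum of 10 counts per library, and 0 to 5 when a library was left out. The inhibitor count of 2 became 5, 7 and 4 with DESeq2, no filter and the GC offset, and 0 to 3 without a library. The FOXO count of 2 became 1 with DESeq2 and 1 with a minimum of 10 counts per library, and 0 to 2 without a library. The adaptor count of 5 was 4 with the GC offset and replicate block, where SHC2 lost its call, and 1 to 5 without a library. The count of other receptor tyrosine kinases, 0, became 2 with DESeq2, 1 with no filter and 1 with the GC offset and replicate block, and 0 to 1 without a library. Over all genes, 671 calls became 1312 with no filter, and 199, 139 and 266 without scramble replicates 1, 2 and 3, and 812, 356 and 665 without SNHG15 siRNA replicates 1, 2 and 3. The split of 392 higher and 279 lower became 515 and 230 with upper-quartile factors, 388 and 386 with DESeq2, and 451 and 527 with the GC offset. Where a call was lost or gained, the cause was not tested. ERBB3, from 24 counts in scramble replicate 3, and BTC, from at most 12, are limited by depth.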
